A study of Bos grunniens with 3 samples.

Results

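The homeobox genes that mark position along the body and the layers of the hair follicle, together with the T-box genes, were described in scapular skin of the Tianzhu white yak (Bos grunniens). Members were taken by symbol from the gene list of the count tables: the HOX genes of clusters A to D, DLX, MSX1 and MSX2, IRX, PITX, BARX1 and BARX2, PRRX1 and PRRX2, the sine oculis family (such as SIX5) and TBX. The rule gave 73 members of 26924 genes and used no measured value. The HOX family had 33 members, with 9 in cluster A, 9 in B, 7 in C and 8 in D. There were 13 TBX, 6 DLX and 6 IRX genes, 6 genes of the sine oculis family, and 3 PITX, 2 MSX, 2 BARX and 2 PRRX genes. TBX genes carry a T-box in place of a homeobox and were kept because the rule named them. Skin from healthy yaks about 2 years old was measured with the 10x Genomics single-cell 3′ assay in hair growth (anagen), regression (catagen) and rest (telogen). Each stage was 1 library, no genetic change or treatment was applied, and follicles pulled after dispase digestion were dissociated with trypsin. The published study describes anagen and catagen skin, so the telogen library is known here from its labels and files alone. Which animal gave which library, and whether animals were pooled, was not given in the sources used here, and the protocol text of the catagen library names anagen as the stage of the skin collected. With 1 library per stage there was no replicate check, so no p-value was computed and every interval below covers counting error only.

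Homeobox proteins bind DNA through a homeodomain. HOX genes lie in clusters in which the order of the genes follows the part of the body axis where each is active, and adult skin keeps a part of this code. In the hair follicle HOXC13 is known as a regulator of hair keratin genes in the precortex and cortex, MSX2 and DLX3 as factors of the matrix and hair shaft, and DLX3 also of the late epidermis. IRX, BARX2 and TBX1 have been linked to follicle epithelium and stem cells, and PRRX1, TBX15 and TBX18 to dermal mesenchyme.

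A minimum of 200 detected genes per cell left 11987 anagen, 12062 catagen and 14502 telogen cells. The kept cells held 82816430, 51537357 and 103430933 unique molecular identifiers (UMIs), with a median per cell of 5256, 3350 and 5583.5. The smallest anagen cell held 2404 UMIs, whereas the other libraries reached down to 500. Between 40 and 49 cell barcodes were shared by each pair of libraries. Anagen and catagen cells were clustered together and telogen cells alone, with the members left out of the genes used, and clusters were named as "-like" classes from marker genes. Levels are given in CPM, the UMIs of a gene over all UMIs of the class or library on the usual scale of that unit, with an exact 95% Poisson interval. Mesenchymal cells were scarce, with 29 in anagen and 4 in catagen. The cluster led by DCN and UHRF1, whose markers are those of the study's fibroblasts, held KRT14 at 2890 to 4700 CPM and COL1A2 at 0 to 3.3 CPM, and the cluster led by ACTA2 and TAGLN, markers of the dermal sheath, held KRT14 at 2380 to 4030 CPM and COL1A2 at 0 to 3.4 CPM. The anagen mesenchymal-like cells held KRT14 at 3560 CPM and COL1A2 at 14700 CPM, and endothelial-like cells held KRT14 at 2620 to 7520 CPM. KRT14 at this level thus does not separate epithelial from other cells. VIM, a fibroblast marker in the published study, was at 6.61 and 27.2 CPM in the DCN-UHRF1 cluster. It was at 1.13 and 1.76 CPM in the ACTA2-TAGLN cluster and 3.88 and 3.91 in basal-like cells. Anagen mesenchymal-like cells held 1170 CPM of VIM and endothelial-like cells 2010 to 3210. By VIM and COL1A2 both clusters were thus on the epithelial side, and they are called by their leading genes. Those of DCN-UHRF1 also included MCM5, MCM2 and MCM3, markers of S phase. Telogen held 385 cells with inner root sheath (IRS) keratins and 165 with cortex keratins, and 7997 of its cells (55.1%) lay in clusters with no name.

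Of the 73 members, 47 reached 3 UMIs in anagen, 43 in catagen and 40 in telogen, and 39 did so in all 3 libraries. All 6 DLX, all 6 IRX, both MSX, both PRRX and all 7 HOXC genes were detected in at least 1 library. By summed level the HOX members of cluster C stood at 34.6 CPM in anagen, 49.3 in catagen and 34.2 in telogen. The A cluster reached 2.75, 1.94 and 2.2 CPM, the B cluster 0.459, 1.59 and 0.764, and the D cluster 0.58, 0.175 and 0.309. Nearly all counts of the HOX members in these libraries of dissociated follicles thus came from cluster C, in each library. Few mesenchymal and endothelial cells were sampled, so these sums do not give the balance of clusters in whole skin. HOX genes without such a symbol in the gene list were not counted, in any of the clusters. No UMI was found in any library for 16 members, namely HOXA11, HOXB1, HOXB9, HOXB13, HOXD3, HOXD12, HOXD13, PITX3, SIX2, SIX6, TBX2, TBX4, TBX5, TBX10, TBX20 and TBX22. Another 9 stayed under 3 UMIs in every library (among them HOXA13, HOXB8, HOXD1, HOXD11, BARX1, SIX3, TBX6 and TBX21).

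**Figure D1:**
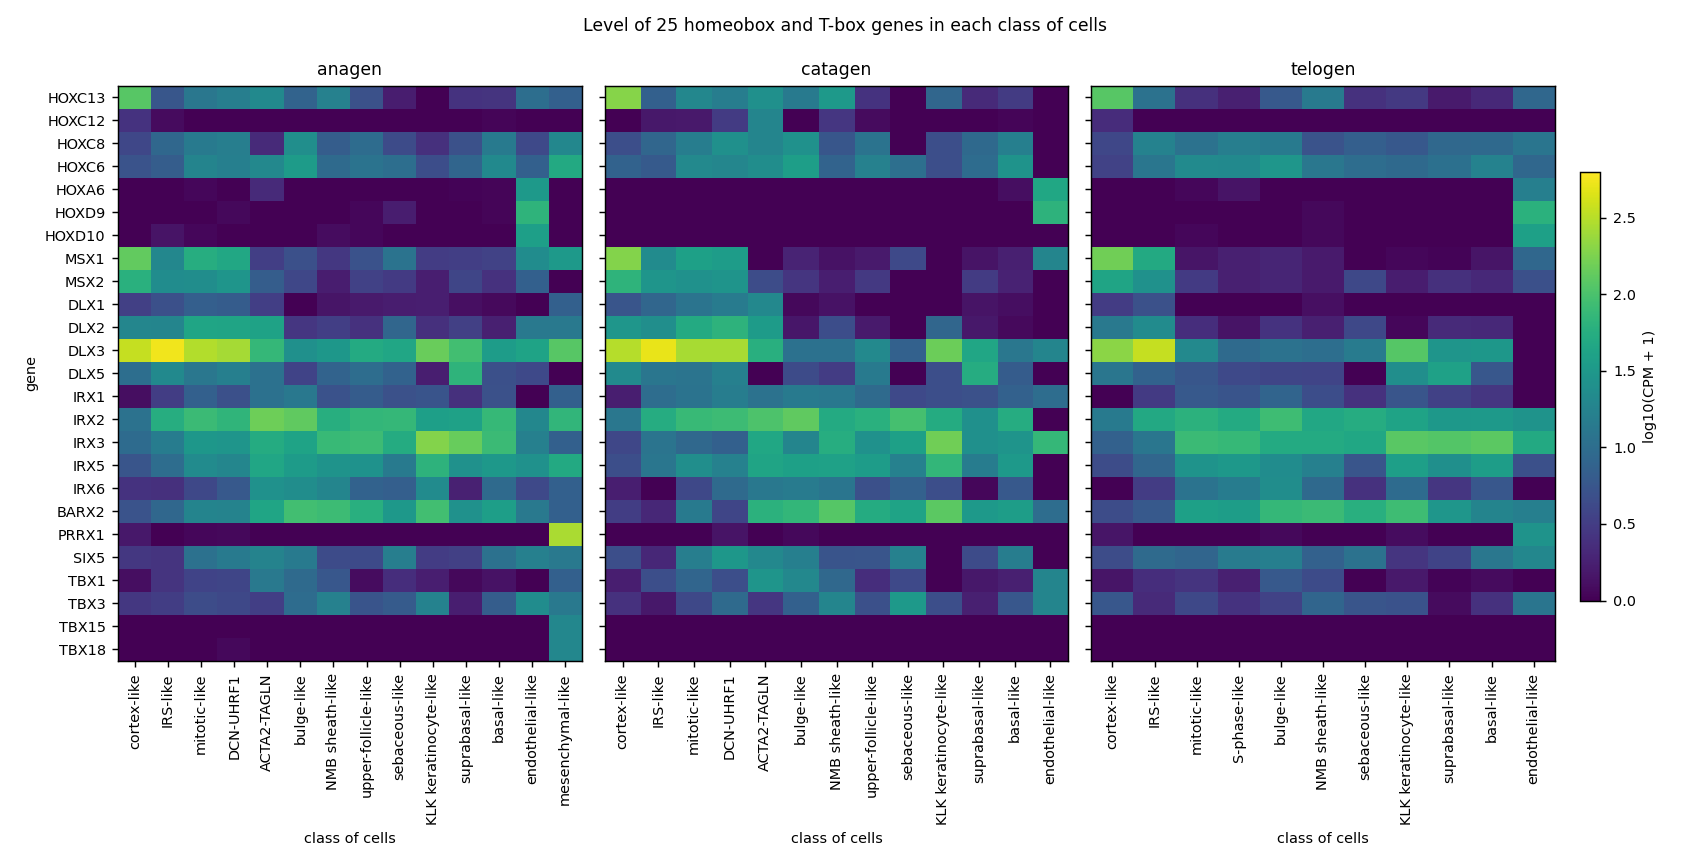
Heat map of the level of the 25 members that reached 10 CPM in a named class of at least 20 cells, one panel per library, with genes in rows, classes of cells in columns and colour giving log10(CPM + 1). HOXC13, MSX1 and MSX2 are brightest in cortex-like cells in each panel, DLX3 in IRS-like cells, and HOXD9 in endothelial-like cells.

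Cortex-like cells, defined by the hair keratins KRT85 and KRT35, held the highest named-class level of HOXC13, MSX1 and MSX2 in all 3 libraries. HOXC13 stood there at 116 CPM in anagen (105 to 127), 193 in catagen (170 to 217) and 117 in telogen (104 to 132). In all other cells of the same libraries it stood at 6.14, 8.47 and 3.37 CPM, so that the class was 18.9-fold, 22.7-fold and 34.8-fold higher. Cortex-like cells were 3.55%, 1.85% and 1.14% of the kept cells and gave 47.3%, 38.0% and 44.6% of the HOXC13 UMIs. The catagen level lay above the other libraries by 0.73 on the log2 scale against anagen (interval 0.51 to 0.96), while telogen over anagen was 0.02 (-0.21 to 0.24). The median gene of cortex-like cells moved by 0.19 and -0.24 in these 2 comparisons. With each cell thinned to 1500 UMIs, a HOXC13 UMI was found in 16.0% of cortex-like cells in anagen (Clopper-Pearson interval 12.6 to 19.8), 30.3% in catagen (23.7 to 37.4) and 20.4% in telogen (14.4 to 27.5). Basal-like cells, taken as the background, gave 0.199%, 0.217% and 0.137% after the same thinning. Without thinning the shares were 51.2%, 56.5% and 68.5% in cortex-like cells (median 7181, 5288 and 11069 UMIs per cell) and 0.795%, 0.675% and 0.639% in basal-like cells (4659.5, 3039 and 5844 UMIs).

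MSX1 and MSX2 encode related homeodomain proteins downstream of BMP signalling. MSX1 reached 134 CPM in anagen cortex-like cells (122 to 146), 191 in catagen (169 to 216) and 153 in telogen (137 to 169). Basal-like cells held 2.56, 0.745 and 0.438 CPM of MSX1. MSX2 reached 59.2 CPM (51.7 to 67.5), 65.7 (52.7 to 80.8) and 41.9 (34.0 to 51.1) in cortex-like cells, against 8.29, 5.62 and 2.39 in the other cells. Telogen over anagen in cortex-like cells was 0.19 on the log2 scale for MSX1 (-0.01 to 0.39) and -0.50 for MSX2 (-0.86 to -0.15). Both are smaller in size than the whole-library differences given further on. The median gene moved by -0.24 in the same comparison of cortex-like cells. IRS-like cells were next in telogen, with 48.7 CPM of MSX1 (43.2 to 54.6) against 19.0 in anagen and 21.5 in catagen, and their MSX2 level was 22, 27.9 and 25.1 CPM. Among the dividing cells of anagen and catagen the cluster numbered AC8 held MSX1 at 74.9 and 46.6 CPM, and the other mitotic cluster, AC17, at 4.8 and 5.28. The telogen mitotic cluster was on the side of AC17 for the genes of this group, with DLX3 at 19.6 CPM against 400 and 336 in AC8.

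Over all members entered at 5 CPM or more, 4 of 15 were at least 2-fold higher in cortex-like than in other cells in anagen (DLX3, HOXC13, MSX1 and MSX2), where 10.5% of all genes entered were. The same 4 and DLX2 made 5 of 16 in catagen (16.9% of all genes) and 5 of 14 in telogen (11%). Classes were built from other genes of the same cells, so these shares describe the classes and test nothing.

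HOXC6 and HOXC8, which pattern the thoracic region of the embryo, had another distribution than HOXC13 at the far end of the same cluster. HOXC6 was higher in bulge-like cells, whose larger anagen and catagen cluster and telogen cluster had SFRP1, CXCL14 and LGR5 among their leading genes, at 33.1 CPM in anagen (27.9 to 38.8), 36.0 in catagen (31.5 to 40.9) and 28.4 in telogen (24.4 to 32.9). Basal-like cells held 20.2, 26.6 and 16.4 CPM, mitotic-like cells 17.3, 19.8 and 21.0, and cortex-like cells held 4.25, 6.64 and 2.57. The 29 anagen mesenchymal-like cells had a level of 49.5 CPM of HOXC6 (21.4 to 97.5), which rested on 8 UMIs. HOXC8 stood at 23 CPM (18.8 to 27.9), 25.4 (21.7 to 29.6) and 13.4 (10.7 to 16.6) in bulge-like cells and at 2.92, 3.69 and 2.99 in cortex-like cells. In telogen its highest level was in IRS-like cells, at 16.6 CPM against 7.69 in anagen and 7.36 in catagen. In cortex-like cells, where HOXC13 was highest, HOXC6 was thus at 0.329, 0.357 and 0.176 times and HOXC8 at 0.311, 0.273 and 0.266 times its level in all other cells.

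Across clusters of at least 20 cells, the rank correlation (Spearman's rho) of HOXC6 with HOXC8 was 0.76 over 26 anagen, 0.59 over 24 catagen and 0.73 over 19 telogen clusters, and that of HOXC6 with HOXC13 was -0.02, 0.14 and -0.18. These pairs were chosen after their values were seen, and the clusters of a library share its preparation and depth. In the RefSeq gene table (assembly Bosgru_T2T1.0) HOXC6 and HOXC8 are next to each other and HOXC12 is next to HOXC13, with no coding gene between. HOXC4, HOXC5 and HOXC6 are also direct neighbours. Such neighbours can share transcripts, so UMIs given to one of them are uncertain. HOXC5 had 105, 156 and 219 UMIs and HOXC4 30, 42 and 71. HOXC12 was sparse, with 9 UMIs in anagen, 6 of them in cortex-like cells, and 27 in catagen, 10 of them in the ACTA2-TAGLN cluster (17.6 CPM). In telogen it had 3 UMIs, all in 1 cortex-like cell. HOXC13 itself was also found in the NMB sheath-like class (NMB and PDZRN3 as markers), at 15.9 CPM in anagen (12.4 to 20.1), 32.0 in catagen (25.7 to 39.4) and 13.4 in telogen (10.8 to 16.5). HOXC10 had 8, 7 and 0 UMIs, and HOXC9 and HOXC11 were not analysed here.

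**Figure D2:**
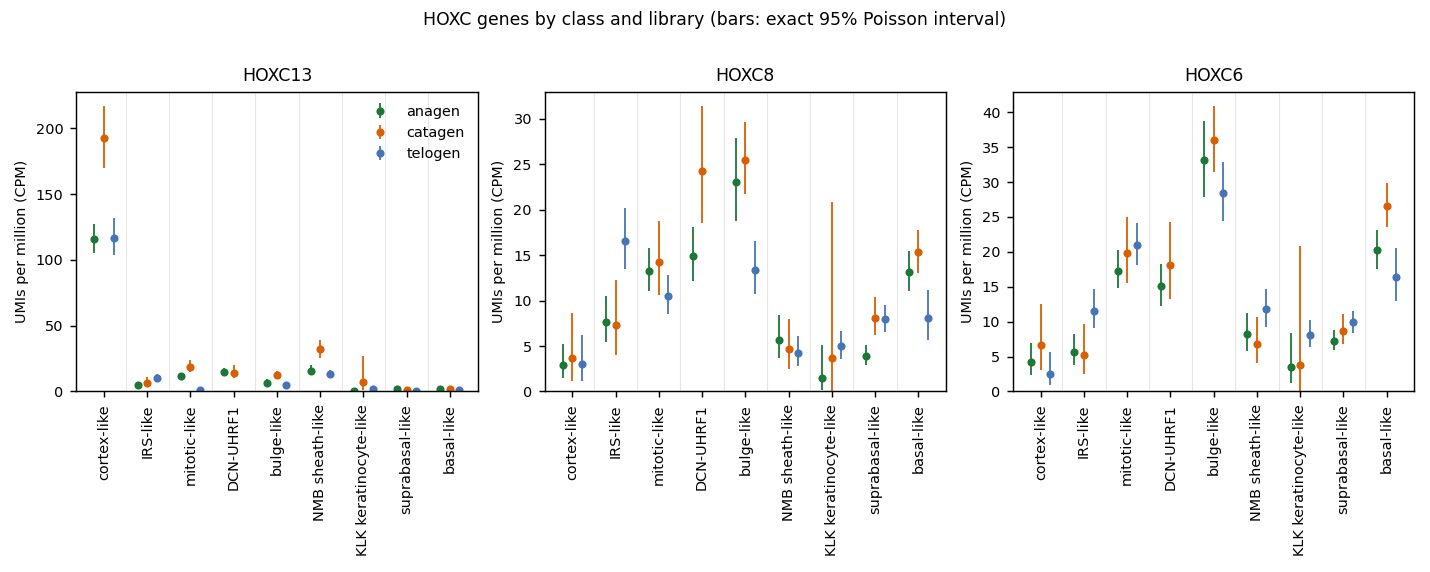
Level of HOXC13, HOXC8 and HOXC6 (CPM, linear axis) in 9 classes of cells, with a point per library and bars for the exact 95% Poisson interval. HOXC13 stands at 116, 193 and 117 CPM in cortex-like cells, where HOXC6 and HOXC8 stay under 7 CPM.

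DLX3, the distal-less factor of the hair matrix and IRS, had its highest level in IRS-like cells of each library. It stood there at 546 CPM in anagen (525 to 567), 507 in catagen (475 to 540) and 357 in telogen (343 to 373), or 4.7-fold, 8.24-fold and 10.2-fold over all other cells. Cortex-like cells came next with 356, 303 and 205 CPM. Telogen over anagen was -0.61 on the log2 scale in IRS-like cells (-0.69 to -0.53) and -0.80 in cortex-like cells (-0.95 to -0.65), while the median gene moved by 0.13 and -0.24 in the same comparisons. Bulge-like cells held 24.3, 10.0 and 10.4 CPM. With cells thinned to 1500 UMIs, 49.0%, 47.5% and 36.6% of IRS-like cells and 4.1%, 1.8% and 1.8% of bulge-like cells had a DLX3 UMI. Unthinned, the IRS-like shares were 80.2%, 84.7% and 79.7% (median 4274, 8204.5 and 11660 UMIs per cell) and the bulge-like shares 10.3%, 2.37% and 5.07% (3948, 2215 and 4574 UMIs).

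DLX1 and DLX2, a pair of adjacent genes, were highest outside the keratin-defined layers in anagen and catagen. DLX2 reached 42.4 CPM (37.7 to 47.5) and 63.9 CPM (54.2 to 74.8) in the DCN-UHRF1 cluster and 60.5 and 61.8 CPM in the mitotic cluster AC8, but 2.58 and 5.28 CPM in AC17. IRS-like cells held 17.6, 23.1 and 21.6 CPM of DLX2 in the 3 libraries, and in telogen they gave 54.6% of its UMIs. No telogen cluster took the name DCN-UHRF1. DLX1 was at 5.60 CPM (3.98 to 7.66) and 13.6 CPM (9.36 to 19.1) in the DCN-UHRF1 cluster, and its highest named-class levels, 6.18 and 19.3 CPM, rested on 1 UMI in mesenchymal-like cells and 11 UMIs in the ACTA2-TAGLN cluster. DLX4, next to DLX3, had 59, 32 and 22 UMIs, of which 18 of the telogen UMIs lay in IRS-like cells.

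DLX5 had its highest named-class level in suprabasal-like cells, the KRT1 and KRT10 layers of the epidermis. The level was 64.9 CPM in anagen (60.7 to 69.4), 52.5 in catagen (47.5 to 57.9) and 39.5 in telogen (36.4 to 42.8), and 58.6%, 50.4% and 49.5% of the DLX5 UMIs were in this class. Within it, the late cluster AC15, led by CNFN and KRT77, held 115 CPM in anagen and 102 in catagen, and the early cluster AC3 49.7 and 31.8. Telogen had a single suprabasal-like cluster, and CNFN was a leading gene of its KLK keratinocyte-like cluster (markers KLK6, KLK7 and KLK10), where DLX5 stood at 22.9 CPM against 0.715 in anagen. The classes are therefore not the same clusters in telogen. DLX6, next to DLX5, had 5, 12 and 8 UMIs.

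Of the members entered, 2 of 15 were at least 2-fold higher in IRS-like than in other cells in anagen (DLX3 and MSX2), beside 3.69% of all genes. In catagen these were 5 of 18 (DLX1, DLX2, DLX3, MSX1 and MSX2, 7.41% of all genes), and in telogen 4 of 14 (DLX2, DLX3, MSX1 and MSX2, 12.3%).

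**Figure D3:**
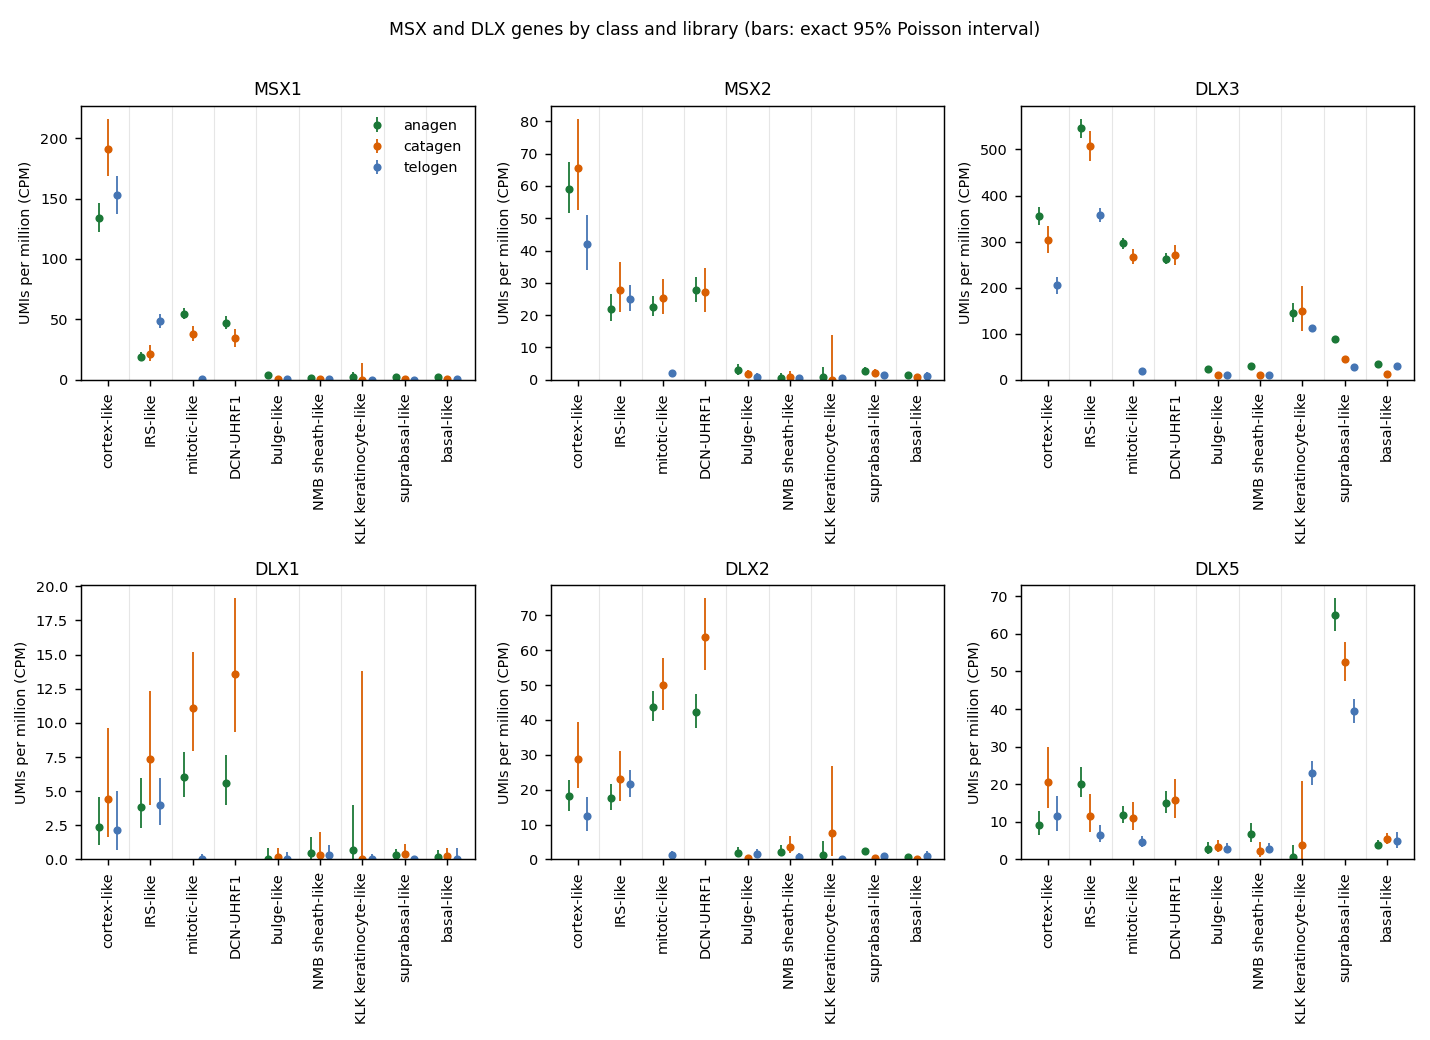
Level of MSX1, MSX2, DLX3, DLX1, DLX2 and DLX5 (CPM, linear axes that differ between panels) in 9 classes, with a point per library and bars for the exact 95% Poisson interval. MSX1 and MSX2 peak in cortex-like cells, DLX3 in IRS-like cells and DLX5 in suprabasal-like cells in all 3 libraries, and the mitotic-like points of DLX3 and DLX2 are lower in telogen than in anagen and catagen.

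IRX3, an Iroquois factor, was lower in suprabasal-like and basal-like cells of catagen than in those of anagen and telogen. In suprabasal-like cells it stood at 139 CPM in anagen (133 to 146), 24.2 in catagen (20.9 to 28.0) and 110 in telogen (104 to 115). Catagen over anagen was -2.53 on the log2 scale (-2.75 to -2.31) and telogen over catagen 2.18 (1.96 to 2.40). Both suprabasal clusters showed it, with 125 against 22.3 CPM in AC3 and 188 against 28.8 in AC15. Basal-like cells held 79.7, 27.2 and 124 CPM, and bulge-like cells 40.7, 17.7 and 50.3. In KLK keratinocyte-like cells the levels were 190, 153 and 121 CPM, and catagen over anagen was -0.31 (-0.83 to 0.16). NMB sheath-like cells held 75.6, 54.0 and 51.1 CPM, with catagen over anagen at -0.49 (-0.78 to -0.21). Catagen over anagen was -1.55 (-1.75 to -1.36) in basal-like and -1.20 (-1.55 to -0.86) in bulge-like cells. It was also past 2-fold in the DCN-UHRF1 cluster at -2.18 (-3.05 to -1.42), in mitotic-like cells at -1.92 (-2.53 to -1.35), in upper-follicle-like cells at -1.73 (-2.01 to -1.46) and, on 4 catagen UMIs, in cortex-like cells at -1.53 (-3.49 to -0.03). The lower catagen level of IRX3 was thus found in epidermal, follicle and dividing classes, while the intervals of KLK keratinocyte-like, IRS-like, sebaceous-like and ACTA2-TAGLN cells included 0.

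IRX5, the next gene to IRX3, did not share this in basal-like cells, where it was at 30.4, 31.8 and 34.8 CPM. Its catagen over anagen value there was 0.07 (-0.16 to 0.29). In suprabasal-like cells IRX5 was at 25.3, 13.9 and 24.0 CPM, or -0.86 (-1.19 to -0.55). IRX6, on the other side of IRX5, was higher in bulge-like cells, at 22.8 CPM in anagen (18.6 to 27.7), 13.5 in catagen (10.9 to 16.7) and 22.8 in telogen (19.2 to 26.8), with 5.22, 3.57 and 7.6 CPM in the other cells. Its anagen level in the ACTA2-TAGLN cluster, 25 CPM (15.6 to 37.8, 22 UMIs), overlapped that of bulge-like cells. The headers of the 3 matrices name different Cell Ranger versions (4.0.0, 3.1.0 and 6.0.2), and the part of the version in any difference between libraries was not tested.

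**Figure D4:**
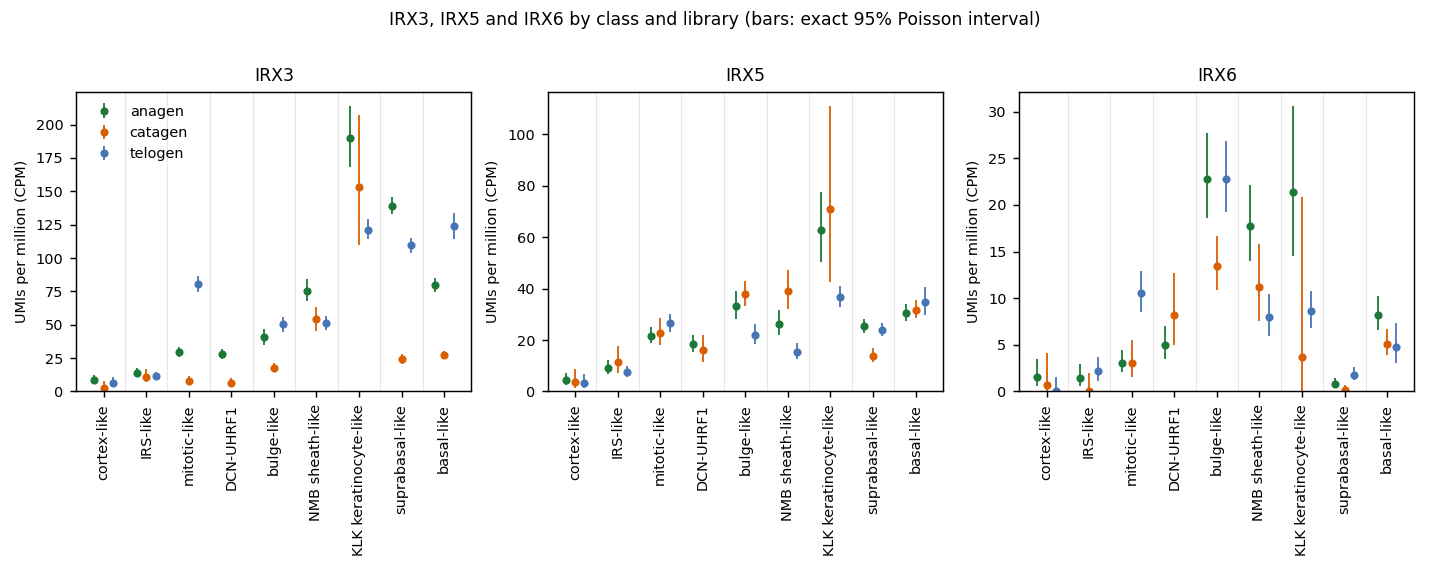
Level of IRX3, IRX5 and IRX6 (CPM, linear axes that differ between panels) in 9 classes, with a point per library and bars for the exact 95% Poisson interval. The catagen points of IRX3 lie at 24.2 CPM in suprabasal-like and 27.2 CPM in basal-like cells, under those of anagen and telogen, while the basal-like points of IRX5 overlap.

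IRX2 and IRX1, of the other Iroquois cluster, were higher in bulge-like cells. IRX2 stood at 131 CPM in anagen (120 to 142), 129 in catagen (120 to 138) and 83.6 in telogen (76.6 to 91.0), and at 10.4, 11.8 and 13.3 CPM in cortex-like cells. Its level in the ACTA2-TAGLN cluster was 151 and 104 CPM. IRX1 stood at 12.1, 12.8 and 6.95 CPM in bulge-like cells. In catagen its highest class was the DCN-UHRF1 cluster, at 14.4 CPM (10.0 to 20.1, 35 UMIs), where catagen over anagen was 1.89 (1.13 to 2.68) against 0.08 (-0.43 to 0.60) in bulge-like cells. IRX4 was sparser, with 65, 111 and 99 UMIs. Over clusters, rho of IRX1 with IRX2 was 0.79, 0.55 and 0.75, and that of IRX3 with IRX6 0.06, 0.16 and 0.35.

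TBX1, a T-box factor known from stem cells of the follicle, had 24.2%, 44.0% and 31.1% of its UMIs in bulge-like cells. Its level there was 8.26 CPM in anagen (5.82 to 11.4), 19.2 in catagen (16.0 to 22.9) and 5.06 in telogen (3.46 to 7.14), against 1.48, 3.53 and 0.731 in the other cells. The ACTA2-TAGLN cluster was the highest named class in anagen and catagen, at 12.5 CPM (6.23 to 22.3, 11 UMIs) and 28.1 CPM (16.1 to 45.6, 16 UMIs). Within bulge-like cells catagen over anagen was 1.22 (0.68 to 1.79). SIX5 was at 13, 15.2 and 15.2 CPM in bulge-like cells. Its highest anagen and telogen levels rested on 15 UMIs in the ACTA2-TAGLN cluster and 5 UMIs in endothelial-like cells. In catagen SIX5 was highest in the DCN-UHRF1 cluster, at 29.3 CPM on 71 UMIs. Catagen over anagen of SIX5 was 1.16 there (0.69 to 1.63) and 0.23 in bulge-like cells (-0.25 to 0.73). Over all members entered, 8 of 17 were at least 2-fold higher in bulge-like than in other cells in anagen (BARX2, HOXC6, HOXC8, IRX1, IRX2, IRX6, SIX5 and TBX1), where 10.7% of all genes were. There were 6 of 18 in catagen (HOXC6, HOXC8, IRX2, IRX4, IRX6 and TBX1, 8.47% of all genes) and 4 of 14 in telogen (HOXC6, IRX6, SIX5 and TBX1, 8.49%).

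BARX2, a homeobox gene of follicle and other epithelia, was low in the classes named by cortex and IRS keratins. Its level was 4.25, 2.21 and 3.42 CPM in cortex-like and 7.69, 1.05 and 4.98 in IRS-like cells. It stood at 81.8 CPM in anagen (73.5 to 90.7), 113 in catagen (101 to 126) and 81.0 in telogen (74.3 to 88.1) in NMB sheath-like cells. KLK keratinocyte-like cells held 88.6, 123 and 84.4 CPM and bulge-like cells 87.8, 70.9 and 72.2. The intervals of the KLK keratinocyte-like and NMB sheath-like levels overlapped in each library, so their order was not settled. TBX3 was at 15.9, 17.6 and 7.09 CPM in NMB sheath-like cells and at 1.86, 1.48 and 4.71 in cortex-like cells. Its highest named-class levels rested on few UMIs. They were in endothelial-like cells in anagen (21.9 CPM, 7 UMIs) and telogen (11.4 CPM, 3 UMIs), and in sebaceous-like cells in catagen (31.7 CPM, 10 UMIs).

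Some sparse members had many of their UMIs in the few mesenchymal and endothelial cells. They are described by class only because they passed 10 CPM in these small classes, so their highest class follows from that rule. In the anagen mesenchymal-like cells 3 UMIs already make 18.6 CPM. PRRX1, a marker of limb and dermal mesenchyme, had 54 UMIs in anagen, of which 45 came from the 29 mesenchymal-like cells (278 CPM, 203 to 372). In catagen 6 of its 8 UMIs came from the mesenchymal-like class, which held 4 cells. In telogen, where no cluster took that name, 7 of 12 came from endothelial-like cells. The telogen endothelial-like cluster also held COL1A2 at 872 CPM against 103 and 0 in the other libraries. TBX15 and TBX18 had 3 UMIs each in the anagen mesenchymal-like cells. HOXD9 was at 65.7 CPM in anagen (40.7 to 100), 63.0 in catagen (25.3 to 130) and 60.7 in telogen (34.7 to 98.5) in endothelial-like cells, resting on 21, 7 and 16 UMIs, which were 84.0%, 100% and 88.9% of the gene's total. HOXD10 gave 12 UMIs in this class in anagen and 10 in telogen, and 0 in catagen, where the 47 endothelial-like cells held 111046 UMIs in all. HOXA6 gave 10, 5 and 4 UMIs there, of 15, 8 and 8 in the whole libraries.

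The other 23 detected members had at most 156 UMIs in a library except HOXC5 in telogen, with levels of at most 3.03 CPM. Among them were DLX4, DLX6, HOXA2, HOXA3, HOXA4, HOXA5, HOXA7, HOXB2, HOXB3, HOXB4, HOXB5, HOXB6, HOXC4, HOXC5, HOXC10, HOXD8, IRX4, PITX1, PRRX2, SIX4 and TBX19. HOXA3 was the most counted of cluster A, with 155, 66 and 143 UMIs, and HOXB6 of cluster B, with 13, 54 and 55.

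Between stages, whole libraries were compared over genes with at least 5 CPM in either library. The mix of cells and the level per cell cannot be told apart in these sums. In catagen 2 of 17 members were at least 2-fold higher than in anagen (TBX1 and IRX1), beside 5.53% of all genes, and 1 of 17 was lower (IRX3), beside 3.47%. TBX1 stood at 1.85 CPM in anagen, 5.51 in catagen and 0.996 in telogen, and IRX1 at 4.11, 8.27 and 3.90. Bulge-like cells, where both are high, were 7.93% of anagen, 20.6% of catagen and 7.48% of telogen cells, and gave 5.41%, 12.6% and 6.12% of UMIs. Within bulge-like cells catagen over anagen was 1.22 for TBX1 and 0.08 for IRX1. For IRX1 it was 1.89 in the DCN-UHRF1 cluster and 1.58 in NMB sheath-like cells. It was 0.75 in mitotic-like, 0.67 in basal-like and 0.56 (-0.07 to 1.19) in upper-follicle-like cells. IRX3 stood at 69.9, 24.9 and 80.3 CPM, with catagen over anagen at -1.49 (-1.58 to -1.40).

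In telogen 0 of 14 members were 2-fold higher than in anagen (3% of all genes) and 4 were lower, beside 8.51% of all genes. These were DLX2 (12.3 against 2.30 CPM), DLX3 (142 against 53.9), MSX1 (19.7 against 6.84) and MSX2 (10.6 against 3.29), for which catagen lay between with 9.64, 77.9, 10.6 and 7.20 CPM. The log2 values of telogen over anagen were -2.42 for DLX2, -1.69 for MSX2, -1.52 for MSX1 and -1.40 for DLX3, and the median gene lay at -0.18. The DCN-UHRF1 cluster and AC8, where these genes are high, held 1235 and 662 of the anagen cells. No telogen cluster took the first name, and 7997 telogen cells had no named class. The S-phase-like telogen cluster (277 cells) shared the leading genes UHRF1, MCM5, MCM2 and MCM3 with DCN-UHRF1. In mitotic-like cells, which pool AC8 with AC17 in anagen, telogen over anagen was -5.03 for DLX2 and -3.91 for DLX3. It was -3.49 for MSX2 and, on 4 telogen UMIs, -6.94 for MSX1. The part of the cell mix in these falls was not tested. IRS-like and cortex-like cells fell from 4.63% and 3.55% to 2.65% and 1.14% of cells. By share of UMIs, which these sums weigh, IRS-like cells stood at 5.97% in anagen and 5.82% in telogen. Cortex-like cells stood at 4.55% and 2.26% of UMIs. Within classes, DLX3 telogen over anagen was -1.66 in suprabasal-like, -1.64 in NMB sheath-like and -1.22 in bulge-like cells. In sebaceous-like cells it was -1.72 (-2.91 to -0.71), on 9 telogen UMIs. It was -0.36 in KLK keratinocyte-like and -0.24 (-0.54 to 0.05) in basal-like cells. The suprabasal-like classes of the 2 libraries are not the same clusters. They held KRT14 at 2500 CPM in anagen and 24200 CPM in telogen, and the part of this in the DLX3 ratio was not tested. Against catagen, 1 of 17 members was higher in telogen (IRX3, 3.97% of all genes) and 5 were lower (DLX2, HOXC13, IRX1, MSX2 and TBX1, 13.6%). With libraries scaled by the median of gene ratios in place of their totals, these counts became 0 higher and 3 lower for catagen against anagen and 2 higher and 1 lower for telogen against catagen, and IRX3 stayed past 2-fold in both. The median of all genes was 0.10 for catagen over anagen and -0.30 for telogen over catagen. The median of the members entered was 0.19, -0.12 and -0.45 for catagen over anagen, telogen over anagen and telogen over catagen.

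**Figure D5:**
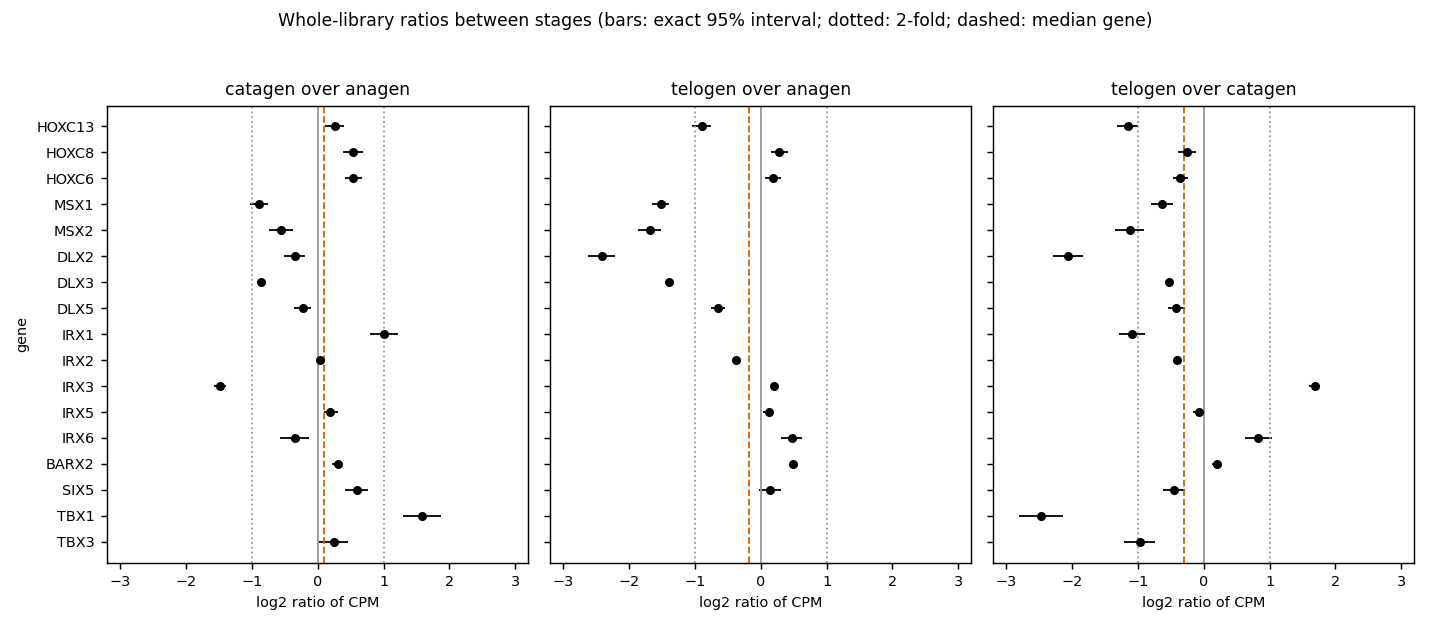
Whole-library log2 ratio of CPM for each member entered, one panel per pair of stages, with bars for the exact 95% interval, dotted lines at 2-fold and a dashed line at the median gene. IRX3 lies past 2-fold on the low side for catagen over anagen (-1.49) and on the high side for telogen over catagen (1.69), and DLX2, DLX3, MSX1 and MSX2 lie past it on the low side for telogen over anagen.

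Members with at least 5 CPM in a named class were also counted by their highest class. Cortex-, IRS-, bulge-, NMB sheath-, upper-follicle- and sebaceous-like cells and the DCN-UHRF1 cluster were taken as follicle classes, and suprabasal-, basal- and KLK keratinocyte-like cells as epidermal. All other named classes counted as neither, among them mitotic-like cells and the ACTA2-TAGLN cluster. That cluster was highest for 4 members in anagen (IRX2, IRX6, SIX5 and TBX1) and 4 in catagen (DLX1, HOXC12, IRX4 and TBX1). The follicle counts depend on this choice. In anagen 6 of 32 members were highest in a follicle class, beside 30.4% of all genes, and in catagen 13 of 27, beside 37.1%, of which 3 (DLX2, IRX1 and SIX5) were highest in the DCN-UHRF1 cluster. In telogen 11 of 22 were, beside 34.1% of all genes. In each library 4 members were highest in an epidermal class, beside 10.6%, 14.5% and 10.4% of all genes. In the small classes 1 UMI already passes that level, and 1 UMI is 6.18 CPM in the anagen mesenchymal-like cells. When the class had to hold at least 20 UMIs of the member, the follicle counts were 9 of 20, 16 of 20 and 13 of 17, beside 50.2%, 53.7% and 51.5% of all genes. Of 20 members ranked in all 3 libraries, 9 had the same highest class in each. HOXC13, MSX1 and MSX2 had it in cortex-like cells, DLX3 in IRS-like and DLX5 in suprabasal-like cells. BARX2 and IRX5 had it in KLK keratinocyte-like cells, and HOXA6 and HOXD9 in endothelial-like cells. The share of all genes with the same highest class was not computed, so this count does not set the members apart. HOXA6 rested on 10, 5 and 4 UMIs there. The telogen suprabasal-like and KLK keratinocyte-like classes are not the same clusters as in anagen and catagen. The first place was within counting error for BARX2 and for IRX5 in each library. For IRX5 in anagen, KLK keratinocyte-like cells held 62.9 CPM and mesenchymal-like cells 49.5 CPM on 8 UMIs. In catagen they held 70.9 CPM of IRX5 on 19 UMIs, and the ACTA2-TAGLN cluster 42.1 CPM on 24 UMIs. In telogen KLK keratinocyte-like cells held 36.7 CPM (32.8 to 41.0) and basal-like cells 34.8 (29.6 to 40.7).

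Partners and signals of these genes were counted from lists, which were chosen with earlier results of these data known. The counts and the shares of all genes beside them therefore describe the lists and test nothing. Of the TALE-class cofactors of HOX proteins, 10 of 11 had a row, 5 entered, and 0 passed 2-fold in any pair of stages. Among all genes the largest share past 2-fold in either direction was 13.6%, lower in telogen than in catagen. A count of 0 of 5 therefore does not set the cofactors apart from other genes. The cofactors at 10 CPM or more were TGIF1 (69.8, 56.2 and 39.0 CPM) and PKNOX1 (12.7, 14.4 and 9.03). The list of signals upstream of DLX and MSX also held receptors and targets of these pathways, such as PTCH1 and ID3. Of its genes, 4 of 12 entered were lower in telogen than in anagen, beside 8.51% of all genes. These were BMP2, BMP4, SHH and PTCH1, and 0 were higher. Against catagen, 4 of 12 were lower in telogen (BMP2, BMP4, ID3 and PTCH1), beside 13.6% of all genes, and 0 were higher. Between catagen and anagen 0 of 13 differed by 2-fold, beside 5.53% of all genes higher in catagen and 3.47% lower. Of the other transcription factors of hair and epidermis, 7 of 17 were lower in telogen than in anagen (LEF1, TCF7L2, KLF4, GRHL3, PRDM1, EHF and ELF5), beside 8.51% of all genes, and 7 of 20 lower in telogen than in catagen, beside 13.6%. In catagen against anagen 1 of 20 was higher (TP63), beside 5.53%, and 3 were lower (PRDM1, EHF and ELF5), beside 3.47%. The hair keratins with reported HOXC13 binding had 4 of 7 genes in the list. The 2 that entered were KRT85 and KRT35, both markers of the cortex-like class. KRT85 stood at 949, 441 and 292 CPM, and KRT35 at 40.3, 38.5 and 15.2, beside 11.1, 13.3 and 5.95 CPM of HOXC13.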

How the data were processed

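The authors deposited, per library, a matrix of raw UMI counts with its genes and barcodes. The counts were made with Cell Ranger, version 2.1.1 per the submitters' notes and 4.0.0, 3.1.0 and 6.0.2 per the file headers of anagen, catagen and telogen. The genome build was not given in the sources used here, and no sequence of the members was used. Here, cells with at least 200 genes were kept, leaving out 13, 62 and 71 cells. Seurat 5.3.0 in R 4.3.3 clustered them with 2000 variable genes less the members, 30 components, 20 neighbours and resolution 0.8, with anchors joining anagen and catagen, into 26 and 19 clusters. A cluster was named where at least 3 markers were raised 1.5-fold (10 CPM added to both levels) and a marker was among its 10 leading genes, a rule set after the clusters were seen. No doublet caller was run and doublets were left in. UMIs were summed per class, ratios were given exact binomial intervals, and the method was tested on simulated counts. For shares, cells were thinned to 1500 UMIs, which left out 0, 2263 and 2932 shallower cells. Members described by class reached 10 CPM in a named class of at least 20 cells in any library, and other detected members are given by name and UMI count. Members and lists were chosen with earlier results of these data known. Sums and intervals were computed in Python 3.11.15 with scipy 1.17.1. No test between libraries was possible, and the alternatives tried are given after the report. Some members are counted but not reported here by name.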

Additional observations from a re-analysis of the deposited data

How the results depend on the processing

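Of 187 values recomputed for the counts and shares, 156 kept within 1.5 times of the count or within counting error, 31 moved and 0 reversed. Members higher in catagen than in anagen were 2, but 0 with median-of-ratios scaling or an entry level of 20 CPM, 1 with cells of at least 1000 genes, with cells thinned to 1500 UMIs or with cells of at least 2404 UMIs, and 5 at 1 CPM. Members lower in catagen were 1, but 3 with median-of-ratios scaling, thinning or a 1.5-fold limit. Members lower in telogen than in anagen were 4, but 1 at 20 CPM. Members higher in telogen than in catagen were 1, but 2 with median-of-ratios scaling or 1.5-fold, and those lower were 5, but 1 with median-of-ratios scaling, 3 with thinning and 0 at 20 CPM. With at least 20 UMIs, 27 members were detected in anagen and 26 in catagen. The anagen count of members highest in a follicle class was 6, but 12 with 15 components, 10 with libraries clustered alone and 10 with cells of at least 1000 genes. The share of cortex-like cells with a HOXC13 UMI became 29.7% in anagen and 27.9% in telogen at 3000 UMIs, and 51.2%, 56.5% and 68.5% unthinned. The share of IRS-like cells with a DLX3 UMI became 71.7%, 72.2% and 52.7% at 3000 UMIs, and 80.2%, 84.7% and 79.7% unthinned. Thinning to more UMIs raises such shares by construction, and for the other moves the cause was not tested. Of 291 values for single members, 253 kept, 36 moved and 2 reversed: IRX3 in catagen suprabasal-like over other cells was -0.05 on the log2 scale, 0.01 with the members kept in the clustering and 0.14 as a mean over cells. No telogen cluster took the cortex-like name at resolution 0.4 or with 15 components, so those values are missing. The UMI minimum per class, the limit at 2404 UMIs, and leaving out the deepest 5% of cells or cells of shared barcodes were chosen after seeing the data. No paired analysis was possible because each stage had 1 library.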

Other observations

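Some members had their highest or near-highest level in clusters that took no name. The clusters led by MMP7 and MGP (32 anagen, 56 catagen and 43 telogen cells) held TBX3 at 57.5 CPM (35.6 to 87.8), 68.0 (43.6 to 101) and 77.0 (53.0 to 108), where no named class of at least 20 cells passed 31.7 CPM. The same clusters held BARX2 at 84.8, 122 and 149 CPM and IRX3 at 172, 139 and 145 CPM, so the catagen level of IRX3 was within the anagen interval there (132 to 221). The clusters led by KRT75 and the kallikreins KLK10 and KLK12 (160, 223 and 94 cells) held HOXC13 at 10.0 CPM (5.47 to 16.8), 36.6 (28.0 to 47.0) and 39.0 (29.5 to 50.7). BARX2 stood in them at 30.8, 70.2 and 126 CPM.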
